A study of Mus musculus with 4 samples.

Results

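Among CD11c+ MHC-II+ cells sorted from B16-F10 melanomas, 899 of the 26882 barcodes past the cell filter (3.34%) carried at least 2 UMIs of Vcan, Trem1 and F10 together and passed gates that removed other cell types. The cells were thus chosen by their measured UMIs, counts of distinct captured RNA molecules. The gates allowed at most 1 UMI of Cd209a, 2 of Ccr7, 1 of Xcr1 and Clec9a together and 2 of Siglech. Per 10000 UMIs of a barcode they allowed under 10 of Ly6c2, under 5 of C1qa, C1qb and C1qc together and under 10 of Retnla. The cell filter kept barcodes with 500 or more genes detected and no more than 10% of UMIs from mitochondria, and 32523 barcodes entered it. The selection itself used expression, so levels of the gated cells against other cells are descriptions without a test. The gated cells numbered 544 in Ad-MEM40, 32 in Ad-mIFNB, 12 in Ad-COMBO and 311 in Ad-Null, so 855 of them (95.1%) came from Ad-MEM40 and Ad-Null.

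The study asked how adenoviruses injected into a tumor act on its dendritic cells. C57BL/6 mice carried subcutaneous tumors grown from 500000 cells of B16-F10, a transplantable mouse melanoma line, and the viruses were injected on day 12. Ad-MEM40 tumors received the virus named ISF35, Ad-mIFNB tumors the virus for mouse interferon beta, Ad-COMBO tumors both viruses, and Ad-Null tumors a null adenovirus that the other groups are set against. Each library pooled 3 tumors and each treatment had 1 library, so no difference between treatments has a replicate check. ISF35 is known as an adenovirus that carries a membrane-bound CD40 ligand, and every group, Ad-Null included, received adenovirus. The labels give neither the age of the mice nor the time between injection and harvest, and they name the sorted cells DC.

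Versican (Vcan) is a matrix proteoglycan, coagulation factor X (F10) is a protease of the clotting cascade, and TREM-1 (Trem1) is a receptor that signals through the adaptor DAP12 and amplifies inflammatory responses of phagocytes. All of them are known from blood monocytes or from macrophages that arise from monocytes. Monocytes that enter a tumor are known to gain CD11c and MHC class II as they differentiate, so a sort on these proteins holds them beside dendritic cells. The genes lie on different chromosomes of the GRCm38 build, Vcan at ENSMUSG00000021614, chr13:89655312-89742509, Trem1 at ENSMUSG00000042265, chr17:48232768-48246924 and F10 at ENSMUSG00000031444, chr8:13037308-13056676.

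The promoters of the genes behind the gate, and of Clec4e and Cxcl2, whose levels stood out in the gated cells, are shown because the results turn on these genes. The sequences are from RefSeq on GRCm38.p6, run from 250 bases before to 50 bases after the gene's start and read 5′ to 3′ on the gene's strand. Of 9 genes sought, 8 had an entry, and the sequences of Mgl2, Areg and Clec4d are not shown. Capitals mark matches on either strand to the NF-kB motif (GGGA and CC with 4 free bases between), TGANTCA (AP-1), TTNNGNAA (C/EBP) or the interferon-stimulated response element (GAAA and GAAA with 2 free bases between).
Trem1 (chr17:48232489-48232788, plus strand): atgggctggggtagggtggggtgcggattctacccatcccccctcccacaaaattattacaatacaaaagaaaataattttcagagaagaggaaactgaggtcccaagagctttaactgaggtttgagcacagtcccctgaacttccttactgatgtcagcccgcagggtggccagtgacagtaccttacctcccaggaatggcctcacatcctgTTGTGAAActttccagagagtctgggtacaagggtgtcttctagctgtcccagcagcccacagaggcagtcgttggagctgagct
F10 (chr8:13037058-13037357, plus strand): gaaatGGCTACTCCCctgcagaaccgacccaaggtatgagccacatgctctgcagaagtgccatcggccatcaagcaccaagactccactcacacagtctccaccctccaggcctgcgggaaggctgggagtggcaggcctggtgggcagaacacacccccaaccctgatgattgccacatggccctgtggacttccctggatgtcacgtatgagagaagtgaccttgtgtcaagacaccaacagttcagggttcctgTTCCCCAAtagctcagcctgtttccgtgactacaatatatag
Vcan (chr13:89742463-89742762, minus strand): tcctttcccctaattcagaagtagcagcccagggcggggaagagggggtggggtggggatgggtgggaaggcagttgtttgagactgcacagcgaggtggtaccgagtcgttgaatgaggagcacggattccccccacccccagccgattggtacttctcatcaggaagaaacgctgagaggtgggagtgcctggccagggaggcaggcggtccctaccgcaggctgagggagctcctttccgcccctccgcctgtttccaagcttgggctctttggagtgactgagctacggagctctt
Clec4e (chr6:123289822-123290121, minus strand): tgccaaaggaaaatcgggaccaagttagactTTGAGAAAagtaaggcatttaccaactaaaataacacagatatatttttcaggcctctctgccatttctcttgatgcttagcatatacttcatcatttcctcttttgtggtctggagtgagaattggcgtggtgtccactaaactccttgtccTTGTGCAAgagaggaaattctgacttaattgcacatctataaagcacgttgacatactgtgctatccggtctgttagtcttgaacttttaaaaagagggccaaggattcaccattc
Cxcl2 (chr5:90903649-90903948, plus strand): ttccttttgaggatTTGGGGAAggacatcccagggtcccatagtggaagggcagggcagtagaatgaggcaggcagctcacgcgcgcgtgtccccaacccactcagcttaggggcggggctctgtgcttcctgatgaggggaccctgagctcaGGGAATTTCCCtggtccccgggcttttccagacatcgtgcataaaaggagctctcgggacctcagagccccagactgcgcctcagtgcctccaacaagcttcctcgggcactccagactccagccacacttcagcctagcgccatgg
Trem1 held a C/EBP match that begins 35 bases before the start. F10 held an NF-kB match from 245 bases before and a C/EBP match from 8 bases after the start, and Vcan held no match of the 4 motifs. Clec4e held C/EBP matches from 219 and 66 bases before the start. Cxcl2 held a C/EBP match from 236 bases before and NF-kB matches from 97 and 96 bases before, which overlap each other. Of the promoters not shown, Mgl2 held 2 NF-kB matches and 1 C/EBP match. Clec4d held 3 C/EBP matches and 1 match of the response element, and Areg held no match. Of 32851 promoters of the same length, 20.7% held the NF-kB letters, 7.81% the AP-1 letters, 40.7% the C/EBP letters and 3.44% the response element. These matches describe letters in the window, not binding.

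The libraries held 186975859 UMIs in Ad-MEM40, 29213335 in Ad-mIFNB, 10584385 in Ad-COMBO and 166077463 in Ad-Null, and 15656, 1810, 671 and 8745 barcodes of those libraries passed the filter. The labels state loading for up to 10000 cells. Gated cells had a median of 10193 UMIs in Ad-MEM40, 20505.5 in Ad-mIFNB, 15008 in Ad-COMBO and 17929 in Ad-Null. Pairs of libraries shared 0 to 63 barcodes and no gated cell. All intervals below are exact at 95%, Poisson for CPM, the UMIs of a gene scaled to a total of 1e6, and Clopper-Pearson for shares, and cover counting error only. A gene counts as higher or lower where the log2 ratio of CPM, with 5 CPM added to both sides, reaches 1.5-fold, among genes with at least 20 UMIs over both sides and 20 CPM in 1 side.

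RNA of other cells was concentrated in a few gated barcodes. In Ad-MEM40, 14 gated barcodes held at least 5 UMIs of the collagen genes Col1a1, Col1a2 and Col3a1, against 2 in Ad-Null, and these carried 6061 of 6074 collagen UMIs in Ad-MEM40 and 2494 of 2500 in Ad-Null. At least 5 UMIs of the melanocyte genes Dct, Pmel, Tyrp1 and Mlana stood in 10 gated barcodes of Ad-MEM40 and 3 of Ad-Null. No gated barcode of Ad-mIFNB or Ad-COMBO held either set. The summed level of 7 fibroblast markers was 1552 CPM in Ad-MEM40, 2.72 CPM in Ad-mIFNB, 0 in Ad-COMBO and 601 CPM in Ad-Null. Leaving those barcodes out left 520 gated cells in Ad-MEM40, 32 in Ad-mIFNB, 12 in Ad-COMBO and 306 in Ad-Null, and results that rest on them are given with and without them. Of the neutrophil markers, S100a9 had 0 UMIs in the gated cells of every library, but also in the other barcodes of Ad-mIFNB and Ad-COMBO. In the gated cells, 4, 8, 10 and 5 of 12 neutrophil markers stood at 0 in Ad-MEM40, Ad-mIFNB, Ad-COMBO and Ad-Null. The 12 markers together were nevertheless above the other barcodes in each library, at 246 against 147 CPM in Ad-MEM40, 371 against 224 CPM in Ad-mIFNB, 395 against 173 CPM in Ad-COMBO and 287 against 179 CPM in Ad-Null. Of the gated sums, 207, 342, 389 and 265 CPM were Il1r2, the IL-1 decoy receptor gene, and the part of neutrophil RNA in the results was not tested.

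Against their label as monocyte-like, the gated cells were mixed. The 12 monocyte markers summed to 4060.1 CPM in gated cells and 2827 CPM in all other barcodes of Ad-MEM40, and to 3978 CPM in gated cells and 2789 CPM in the others of Ad-Null. In Ad-mIFNB the gated cells summed to 4091 CPM and the others to 4220.3 CPM, and in Ad-COMBO to 2954 CPM and 2892 CPM. So the monocyte sum stayed within 1.5-fold of the other barcodes in all 4 libraries. The sum includes Vcan, a gate gene, and Ly6c2, which the rule capped in the gated cells but not in the others. The 11 cDC2 markers (type 2 conventional dendritic cells) were also above the other barcodes, at 1707 against 1309.6 CPM in Ad-MEM40 and 2041 against 1445 CPM in Ad-Null, although the rule capped Cd209a, 1 of them. The macrophage sum was below the others, at 1678 against 5834 CPM in Ad-MEM40 and 1346 against 3651 CPM in Ad-Null, and the rule capped its C1q genes. The markers thus do not set the whole group apart as monocytes, and it is called the gated cells from here on.

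The gated cells took a similar share of the sorted cells in Ad-MEM40 and Ad-Null and a smaller one in the interferon beta libraries. They made up 3.47% of barcodes past the filter in Ad-MEM40 (interval 3.19% to 3.77%), 1.77% in Ad-mIFNB (1.21% to 2.49%), 1.79% in Ad-COMBO (0.927% to 3.10%) and 3.56% in Ad-Null (3.18% to 3.97%). With every barcode thinned to 3000 UMIs and the rule applied to the thinned counts, the shares were 1.67% in Ad-MEM40 (1.46% to 1.90%), 0.436% in Ad-mIFNB (0.175% to 0.896%), 0.877% in Ad-COMBO (0.285% to 2.04%) and 1.33% in Ad-Null (1.09% to 1.61%). The Ad-COMBO interval overlaps those of Ad-MEM40 and Ad-Null after thinning. These are shares of a CD11c+ MHC-II+ sort, which sets what could be counted, and with 1 library per treatment no test is possible.

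The gene that gated a cell differed between the libraries. Cells with at least 1 UMI of Vcan or F10, called Vcan/F10 cells, made up 2.82% of barcodes past the filter in Ad-MEM40 (441 cells, 2.56% to 3.09%), 0.773% in Ad-mIFNB (14 cells, 0.423% to 1.29%), 0.745% in Ad-COMBO (5 cells, 0.242% to 1.73%) and 2.66% in Ad-Null (233 cells, 2.34% to 3.02%). Cells gated by Trem1 UMIs alone, called Trem1-only cells, made up 0.658% in Ad-MEM40 (103 cells, 0.537% to 0.797%), 0.994% in Ad-mIFNB (18 cells, 0.590% to 1.57%), 1.04% in Ad-COMBO (7 cells, 0.420% to 2.14%) and 0.892% in Ad-Null (78 cells, 0.706% to 1.11%). The intervals of the Vcan/F10 share in both interferon beta libraries lay below those of Ad-MEM40 and Ad-Null, whereas the intervals of the Trem1-only share overlapped across all 4 libraries. Only 65 gated cells of Ad-MEM40, 3 of Ad-mIFNB, 0 of Ad-COMBO and 51 of Ad-Null carried all 3 genes.

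**Figure D1:**
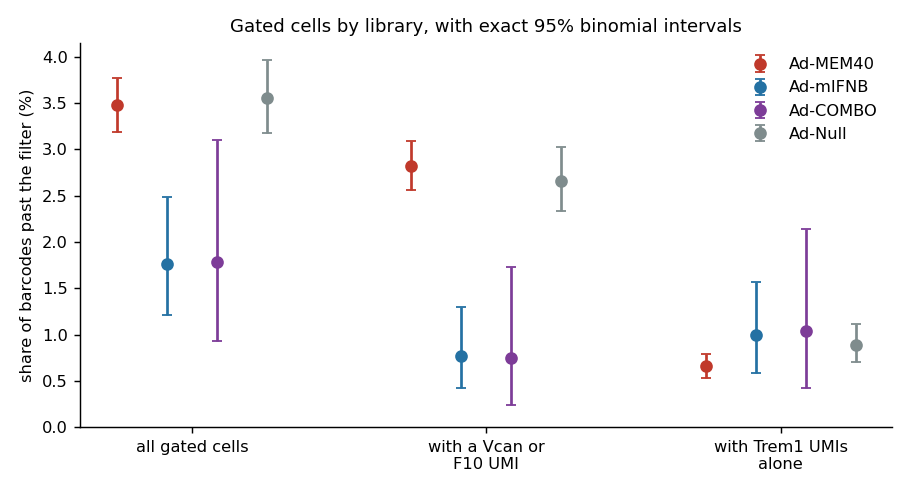
Share of barcodes past the filter (y axis, %) taken by all gated cells and by both subsets, in each library, with points for shares and bars for exact 95% binomial intervals. The Vcan/F10 share lies at 2.82% in Ad-MEM40, 0.773% in Ad-mIFNB, 0.745% in Ad-COMBO and 2.66% in Ad-Null, while the Trem1-only shares lie between 0.658% and 1.04%.

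The Vcan/F10 cells and the Trem1-only cells held different programs. The Vcan/F10 cells averaged more of the macrophage and matrix genes Lyz2, Fn1, Arg1, Lpl, Spp1 and F13a1, although not every cell carried them. Of all Vcan/F10 cells, 301 of 441 in Ad-MEM40 (68.3%) and 158 of 233 in Ad-Null (67.8%) had no Arg1 UMI, and 218 in Ad-MEM40 (49.4%) and 88 in Ad-Null (37.8%) had no Fn1 UMI. The Trem1-only cells averaged far less of these and more of genes also found in the Cd209a cells (at least 2 UMIs of Cd209a under the same other gates), such as Klrd1, Napsa, Kmo and H2-Oa. Values of these subsets leave out the barcodes with collagen or melanocyte UMIs, which left 418 Vcan/F10 and 102 Trem1-only cells in Ad-MEM40 and 228 and 78 in Ad-Null. In both libraries, 293 of 5334 genes (5.49%) were higher in the Vcan/F10 cells and 218 (4.09%) were lower. Because the split uses expression of the same cells, these counts are descriptions. In each library by itself, as for the list counts below, 563 of 5693 genes (9.89%) were higher and 534 (9.38%) lower in Ad-MEM40, and 480 of 5610 (8.56%) were higher and 400 (7.13%) lower in Ad-Null.

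Lysozyme (Lyz2), an antibacterial enzyme of phagocytes, averaged 6584 CPM in Ad-MEM40, 8279 CPM in Ad-mIFNB, 2736 CPM in Ad-COMBO and 4173 CPM in Ad-Null in the Vcan/F10 cells. In the Trem1-only cells it averaged 1863 CPM in Ad-MEM40, 85.98 CPM in Ad-mIFNB, 8.04 CPM in Ad-COMBO and 672 CPM in Ad-Null. The order was the same in all 4 libraries, although Ad-COMBO held 5 and 7 cells of the subsets. The Cd209a cells stood lower still, at 596 CPM in Ad-MEM40 and 329 CPM in Ad-Null. The 8279 CPM of Ad-mIFNB rests on 14 Vcan/F10 cells, of which the highest reached 425 Lyz2 UMIs per 10000. Their median was 34.5 per 10000, against 38.8 in all 441 Vcan/F10 cells of Ad-MEM40. Per cell, more UMIs of Lyz2 than of the class II gene H2-Aa, a count not scaled by length, were found in 227 of 418 Vcan/F10 cells of Ad-MEM40 (54.3%, interval 49.4% to 59.2%) and in 18 of 102 Trem1-only cells (17.6%, 10.8% to 26.4%). In Ad-Null these were 86 of 228 Vcan/F10 cells (37.7%, 31.4% to 44.4%) and 2 of 78 Trem1-only cells (2.56%, 0.312% to 8.96%). Among the Cd209a cells they were 15 of 1163 in Ad-MEM40 (1.29%) and 10 of 1342 in Ad-Null (0.745%).

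**Figure D2:**
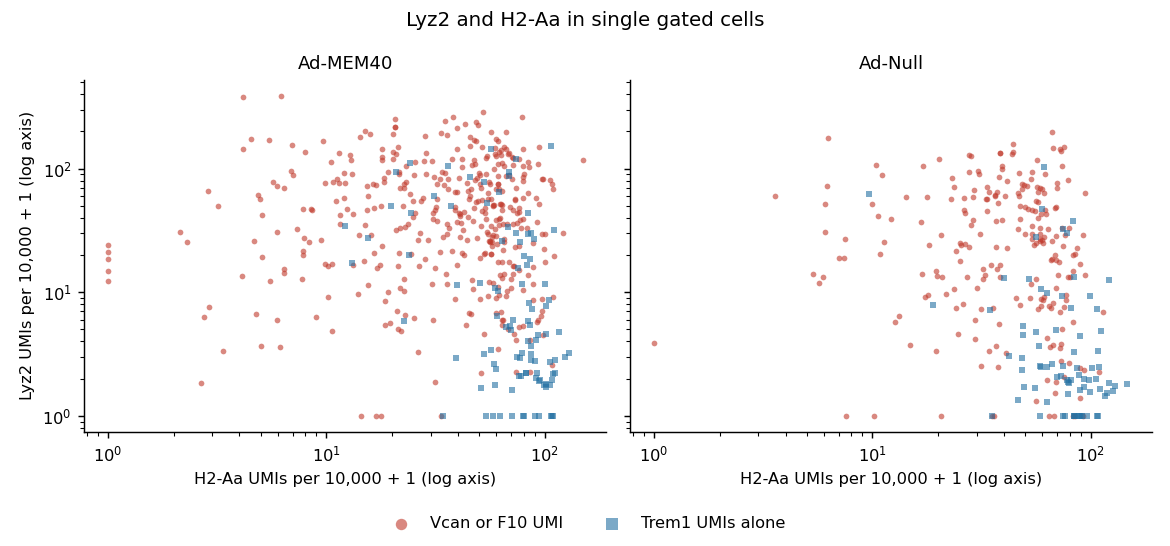
Lyz2 (y axis) against H2-Aa (x axis), both as UMIs per 10000 UMIs of the cell with 1 added on log axes, in single gated cells of Ad-MEM40 (left) and Ad-Null (right). Most Trem1-only cells (squares) lie at low Lyz2 and high H2-Aa, and Vcan/F10 cells (circles) spread to high Lyz2 and low H2-Aa, with 54.3% of them holding more Lyz2 than H2-Aa UMIs in Ad-MEM40 and 37.7% in Ad-Null.

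Genes of matrix and clotting were higher in the Vcan/F10 cells. Fibronectin (Fn1), a matrix glycoprotein, averaged 563 CPM in Ad-MEM40 and 814 CPM in Ad-Null in the Vcan/F10 cells, against 11.1 CPM in Ad-MEM40 and 17.7 CPM in Ad-Null in the Trem1-only cells, a log2 difference of 5.14 and 5.18. The Vcan/F10 cells of Ad-mIFNB had 815 CPM of it and those of Ad-COMBO had 0 UMIs. The clotting transglutaminase subunit F13a1 had 135 CPM in Ad-MEM40 and 119 CPM in Ad-Null in the Vcan/F10 cells, against 9.23 CPM in Ad-MEM40 and 5.88 CPM in Ad-Null in the Trem1-only cells. Thrombospondin 1 (Thbs1), an adhesive glycoprotein, had 125 CPM in Ad-MEM40 and 182 CPM in Ad-Null in the Vcan/F10 cells, against 12.9 CPM in Ad-MEM40 and 11.03 CPM in Ad-Null in the Trem1-only cells. Both therefore followed the same split in each library. Of the coagulation and fibrinolysis genes, 8 of 10 measured were higher and 0 lower in Ad-MEM40 (median log2 1.57), and 6 of 8 were higher and 0 lower in Ad-Null (median 2.30), but F10 helped to define the split. Of the matrix genes, 12 of 18 were higher and 0 lower in Ad-MEM40 (median 1.15), and 12 of 17 were higher and 0 lower in Ad-Null (median 0.83), where Vcan helped to define the split. The median of all genes was -0.04 in Ad-MEM40 and -0.02 in Ad-Null.

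Metabolic and scavenging genes split the same way. Arginase 1 (Arg1), which depletes arginine, had 549.8 CPM in Ad-MEM40 and 500.2 CPM in Ad-Null in the Vcan/F10 cells, against 27.7 CPM in Ad-MEM40 and 18.4 CPM in Ad-Null in the Trem1-only cells. Lipoprotein lipase (Lpl) had 726 CPM in Ad-MEM40 and 967 CPM in Ad-Null in the Vcan/F10 cells, against 84.01 CPM in Ad-MEM40 and 83.9 CPM in Ad-Null in the Trem1-only cells. All 9 measured lipid handling genes were higher in the Vcan/F10 cells of Ad-MEM40 (median log2 1.75), and 8 of 9 were higher in Ad-Null (median 1.54). Among them Trem2, a lipid-sensing receptor of macrophages, had 93.7 CPM in Ad-MEM40 and 65.4 CPM in Ad-Null in the Vcan/F10 cells, against 12.002 CPM in Ad-MEM40 and 4.41 CPM in Ad-Null in the Trem1-only cells. The list for phagocytosis and lysosomes had 12 of 16 measured genes higher in each library and 0 lower (median 1.08 in Ad-MEM40 and 1.09 in Ad-Null). The scavenger receptor Msr1 had 170.5 CPM in Ad-MEM40 and 137 CPM in Ad-Null in the Vcan/F10 cells, against 31.4 CPM in Ad-MEM40 and 7.36 CPM in Ad-Null in the Trem1-only cells. Heme oxygenase (Hmox1) had 735 CPM in Ad-MEM40 and 319.6 CPM in Ad-Null in the Vcan/F10 cells, against 146 CPM in Ad-MEM40 and 31.6 CPM in Ad-Null in the Trem1-only cells. Hypoxia and glycolysis genes were higher for 12 of 20 in Ad-MEM40 and 7 of 20 in Ad-Null, with 0 lower in either.

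Chemokines were also higher in the Vcan/F10 cells. In Ad-MEM40, 15 of 18 measured were higher in the Vcan/F10 cells and 1 was lower (median log2 1.84), and in Ad-Null 13 of 16 were higher and 1 lower (median 1.68). Cxcl2, a neutrophil attractant, had 7662 CPM in Ad-MEM40, 5736 CPM in Ad-mIFNB, 1708 CPM in Ad-COMBO and 5193 CPM in Ad-Null in the Vcan/F10 cells, and 2288 CPM in Ad-MEM40, 1065 CPM in Ad-mIFNB, 369.9 CPM in Ad-COMBO and 1493 CPM in Ad-Null in the Trem1-only cells. The Vcan/F10 cells were thus higher in all 4 libraries. Ccl6, a CC chemokine, had 1876 CPM in Ad-MEM40 and 2139 CPM in Ad-Null in the Vcan/F10 cells, against 352 CPM in Ad-MEM40 and 343 CPM in Ad-Null in the Trem1-only cells. Ccl7, a monocyte attractant, had 316 CPM in Ad-MEM40 and 299.7 CPM in Ad-Null in the Vcan/F10 cells, against 59.1 CPM in Ad-MEM40 and 35.3 CPM in Ad-Null in the Trem1-only cells. Clec4e, which encodes Mincle, an ITAM-coupled lectin for glycolipids and dying cells, had 442 CPM in Ad-MEM40, 157 CPM in Ad-mIFNB, 348 CPM in Ad-COMBO and 176 CPM in Ad-Null in the Vcan/F10 cells, and 96.02 CPM in Ad-MEM40, 9.92 CPM in Ad-mIFNB, 0 CPM in Ad-COMBO and 38.99 CPM in Ad-Null in the Trem1-only cells.

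Other genes were higher in the Trem1-only cells, while the cDC2 markers did not lean that way as a list, with 1 of 6 higher and 2 lower in the Vcan/F10 cells of Ad-MEM40 and 1 of 7 higher and 2 lower in those of Ad-Null. Klrd1, the CD94 chain, had 26.01 CPM in Ad-MEM40 and 47.98 CPM in Ad-Null in the Vcan/F10 cells, against 249 CPM in Ad-MEM40 and 278 CPM in Ad-Null in the Trem1-only cells. The Cd209a cells had 363 CPM in Ad-MEM40 and 399.9 CPM in Ad-Null of it. Napsin A (Napsa), an aspartic protease, had 195 CPM in Ad-MEM40 and 251 CPM in Ad-Null in the Vcan/F10 cells, against 731 CPM in Ad-MEM40 and 644 CPM in Ad-Null in the Trem1-only cells. The fatty acid receptor Ffar2 had 12.9 CPM in Ad-MEM40 and 13.7 CPM in Ad-Null in the Vcan/F10 cells, against 137 CPM in Ad-MEM40 and 111 CPM in Ad-Null in the Trem1-only cells. In each case the Trem1-only value lay nearer to the Cd209a cells, which had 931 CPM in Ad-MEM40 and 976 CPM in Ad-Null of Napsa and 113 CPM in Ad-MEM40 and 92.3 CPM in Ad-Null of Ffar2. The membrane protein gene Ifitm1 had 347 CPM in Ad-MEM40 and 366 CPM in Ad-Null in the Vcan/F10 cells, against 2396 CPM in Ad-MEM40 and 1719.8 CPM in Ad-Null in the Trem1-only cells, and 1377 CPM in Ad-MEM40 and 1315 CPM in Ad-Null in the Cd209a cells. The IL-1 decoy receptor gene Il1r2 had 157 CPM in Ad-MEM40 and 184 CPM in Ad-Null in the Vcan/F10 cells, against 551 CPM in Ad-MEM40 and 579.6 CPM in Ad-Null in the Trem1-only cells. The Cd209a cells had 321 CPM in Ad-MEM40 and 329.6 CPM in Ad-Null of it.

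Of 13 measured class II presentation genes, 9 were lower in the Vcan/F10 cells of Ad-MEM40 and 1 was higher (median log2 -0.72), and 7 were lower and 1 higher in Ad-Null (median -0.63). H2-Oa, a chain of the class II loading modulator, had 10.7 CPM in Ad-MEM40 and 17.4 CPM in Ad-Null in the Vcan/F10 cells, against 109 CPM in Ad-MEM40 and 136 CPM in Ad-Null in the Trem1-only cells. The class II chain H2-Aa had 4464 CPM in Ad-MEM40, 2909.6 CPM in Ad-mIFNB, 1961 CPM in Ad-COMBO and 4787 CPM in Ad-Null in the Vcan/F10 cells, and 7481 CPM in Ad-MEM40, 9210.2 CPM in Ad-mIFNB, 8830.4 CPM in Ad-COMBO and 7569.9 CPM in Ad-Null in the Trem1-only cells. Cell cycle genes were lower in the Vcan/F10 cells for 11 of 15 in Ad-MEM40 (median -0.85) and 6 of 15 in Ad-Null (median -0.49), with 0 higher. The proliferation marker Mki67 had 75.2 CPM in Ad-MEM40 and 119.8 CPM in Ad-Null in the Vcan/F10 cells, against 161 CPM in Ad-MEM40 and 169.9 CPM in Ad-Null in the Trem1-only cells. Flt3, the receptor for the dendritic cell growth factor, had 3.06 CPM in Ad-MEM40 and 4.17 CPM in Ad-Null in the Vcan/F10 cells and 20.3 CPM in Ad-MEM40 and 19.9 CPM in Ad-Null in the Trem1-only cells, and 118 CPM in Ad-MEM40 and 121 CPM in Ad-Null in barcodes gated as cDC1 (type 1 conventional dendritic cells). The summed monocyte markers were 3930.4 CPM in the Vcan/F10 cells and 4679 CPM in the Trem1-only cells of Ad-MEM40, and 3930.0 and 4143 CPM in those of Ad-Null, against 4702 and 4286 CPM in the Cd209a cells.

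**Figure D3:**
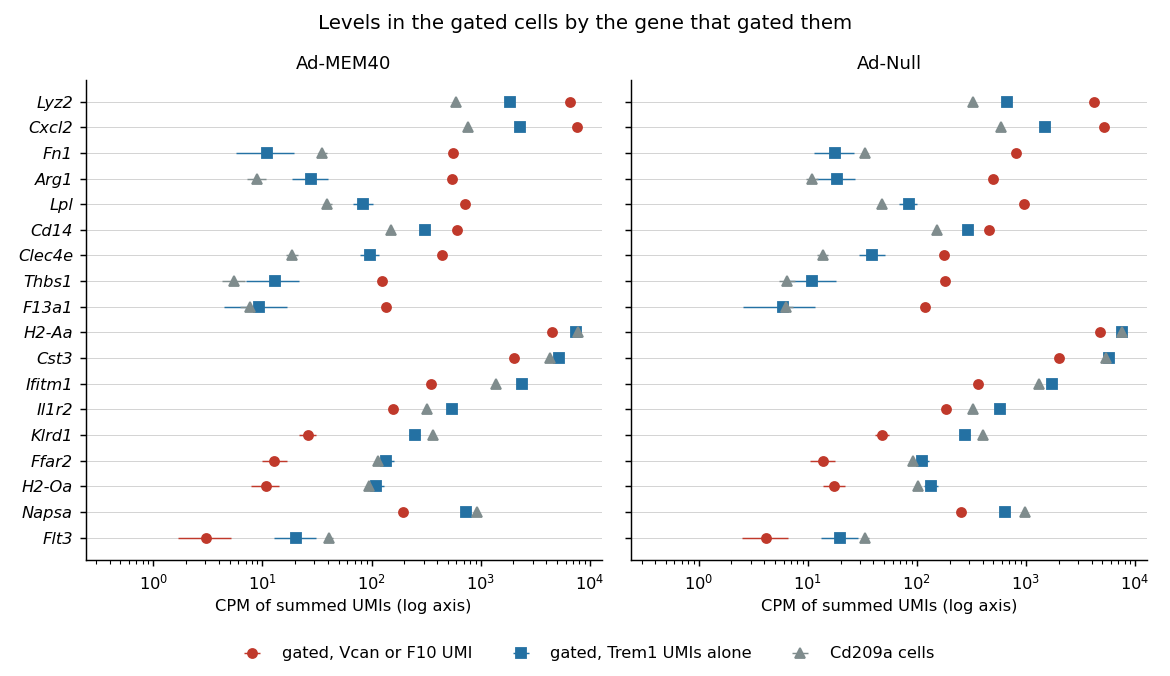
CPM of summed UMIs (x axis, log scale) for named genes in Vcan/F10 cells (circles), Trem1-only cells (squares) and Cd209a cells (triangles) of Ad-MEM40 (left) and Ad-Null (right), with exact 95% Poisson intervals as bars. The Trem1-only values lie beside those of the Cd209a cells for Klrd1, Ffar2, H2-Oa, Napsa and H2-Aa, and the Vcan/F10 values stand apart from both, as for Fn1 at 563 CPM against 11.1 CPM in Ad-MEM40.

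Beyond the genes that gated them, the leading genes of the gated cells against all other barcodes of their library included Clec4e, Clec4n, Ltb4r1, Cxcl2, Areg and Cd14. Of 5596 genes, 175 (3.13%) were higher and 164 (2.93%) lower in both Ad-MEM40 and Ad-Null, a contrast that the selection itself used. The values that follow leave out the barcodes with collagen or melanocyte UMIs, since with them Col3a1, Col1a2 and Col1a1 led the list. Trem1 had 125 CPM in Ad-MEM40, 84.3 CPM in Ad-mIFNB, 128 CPM in Ad-COMBO and 101 CPM in Ad-Null, F10 had 241 CPM in Ad-MEM40, 97.9 CPM in Ad-mIFNB, 101 CPM in Ad-COMBO and 219 CPM in Ad-Null and Vcan had 94.7 CPM in Ad-MEM40, 33.98 CPM in Ad-mIFNB, 10.7 CPM in Ad-COMBO and 114 CPM in Ad-Null, and these values only restate the gate. Of the TREM and ITAM-coupled receptor genes, 8 of 18 were higher and 0 lower than in the other barcodes of Ad-MEM40 (median log2 0.52), and 9 of 18 higher and 1 lower in Ad-Null (median 0.60). The cytokine and inflammation receptor genes had 10 of 18 higher and 1 lower in Ad-MEM40 (median 0.67), and 6 of 16 higher and 2 lower in Ad-Null (median 0.45). Chemokines did not lean the same way, with 5 of 19 higher and 8 lower in Ad-MEM40 (median -0.30) and 6 of 18 higher and 7 lower in Ad-Null (median -0.33). The lectin list had 1 of 9 higher and 1 lower in Ad-MEM40 and 3 of 9 higher and 1 lower in Ad-Null. Over all genes, 298 of 5873 were higher and 248 lower in Ad-MEM40 (median -0.06), and 245 of 5726 higher and 256 lower in Ad-Null (median -0.06). These list counts keep every gated cell.

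Clec4e stood first after the gate genes. It had 376 CPM in Ad-MEM40, 96.5 CPM in Ad-mIFNB, 117 CPM in Ad-COMBO and 143 CPM in Ad-Null, against 62.7 CPM in Ad-MEM40 and 26.3 CPM in Ad-Null in the other barcodes (log2 2.49 and 2.24). Thinned to 3000 UMIs, 44.7% of gated cells in Ad-MEM40 (interval 40.4% to 49.04%) and 23.9% in Ad-Null (19.2% to 29.04%) had a Clec4e UMI. In cDC1-gated barcodes, where the gene serves as background, the thinned shares were 3.17% in Ad-MEM40 and 0.773% in Ad-Null. At full depth the shares were 64.9% of gated cells and 11.4% of cDC1-gated barcodes in Ad-MEM40, and 50.2% and 7.63% in Ad-Null, where median depths were 10193 and 14481 UMIs in Ad-MEM40 and 17929 and 23384 in Ad-Null. Clec4n, which encodes the related lectin Dectin-2 and lies in the same cluster on chromosome 6 as Clec4e, with Clec4d between them (ENSMUSG00000023349, chr6:123229843-123247021), had 376 CPM in Ad-MEM40, 183 CPM in Ad-mIFNB, 224 CPM in Ad-COMBO and 293 CPM in Ad-Null, against 81.7 CPM in Ad-MEM40 and 95.5 CPM in Ad-Null in the other barcodes. Mgl2, the lectin CD301b of dendritic and alternatively activated cells, had 323 CPM in Ad-MEM40, 425 CPM in Ad-mIFNB, 272 CPM in Ad-COMBO and 539.7 CPM in Ad-Null, against 127 CPM in Ad-MEM40 and 213 CPM in Ad-Null in the other barcodes.

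Other leading genes came from several lists. Cxcl2 had 6633 CPM in Ad-MEM40, 3816 CPM in Ad-mIFNB, 821 CPM in Ad-COMBO and 4306 CPM in Ad-Null, against 2092 CPM in Ad-MEM40 and 1309 CPM in Ad-Null in the other barcodes. Amphiregulin (Areg), a ligand of the EGF receptor, had 78.99 CPM in Ad-MEM40, 14.95 CPM in Ad-mIFNB, 0 CPM in Ad-COMBO and 127 CPM in Ad-Null, against 20.8 CPM in Ad-MEM40 and 23.6 CPM in Ad-Null in the other barcodes. Both genes were at lower levels in the few cells of Ad-mIFNB and Ad-COMBO, where 18 of 32 and 7 of 12 cells were Trem1-only. Among the Vcan/F10 cells alone, summed Cxcl2 in Ad-mIFNB was above Ad-Null, as given above. The median per cell went the other way, at 28.7 UMIs per 10000 in the 14 cells of Ad-mIFNB and 35.5 in all 233 of Ad-Null. Ltb4r1, the leukotriene B4 receptor, had 171 CPM in Ad-MEM40, 84.3 CPM in Ad-mIFNB, 47.98 CPM in Ad-COMBO and 171 CPM in Ad-Null, against 44.1 CPM in Ad-MEM40 and 48.6 CPM in Ad-Null in the other barcodes. The prostaglandin synthase Ptgs2 had 289 CPM in Ad-MEM40, 67.96 CPM in Ad-mIFNB, 283 CPM in Ad-COMBO and 211 CPM in Ad-Null, against 95.003 CPM in Ad-MEM40 and 73.3 CPM in Ad-Null in the other barcodes. Oncostatin M (Osm), an IL-6 family cytokine, had 130.2 CPM in Ad-MEM40 and 127 CPM in Ad-Null in the gated cells, against 43.4 CPM in Ad-MEM40 and 43.2 CPM in Ad-Null in the other barcodes. Cd14, the coreceptor for lipopolysaccharide, had 551 CPM in Ad-MEM40 and 415 CPM in Ad-Null in the gated cells, against 171 CPM in Ad-MEM40 and 150.1 CPM in Ad-Null in the other barcodes. The lipid droplet gene Hilpda, a hypoxia target, had 305 CPM in Ad-MEM40 and 290.1 CPM in Ad-Null in the gated cells, against 106 CPM in Ad-MEM40 and 88.8 CPM in Ad-Null in the other barcodes.

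The gated cells differed from each neighbouring population in the same libraries, in genes that partly follow from the gates. Against the 1163 Cd209a cells of Ad-MEM40 and 1342 of Ad-Null, 420 of 5438 genes (7.72%) were higher and 215 (3.95%) lower in both. Arg1 (log2 4.92 in Ad-MEM40 and 4.61 in Ad-Null), Fn1 (3.78 and 4.01) and Lpl (3.68 and 3.78) were among the highest. The dendritic cell lectin Clec10a (-2.16 and -1.68), Cd7 (-3.76 and -2.82), an immunoglobulin family receptor, and Bcl11a (-2.42 and -1.57), a zinc finger transcription factor, were among the lowest. Against C1q macrophages, 208 of 5622 genes (3.7%) were higher and 275 (4.89%) lower in both. Il1r2 had 207 CPM in Ad-MEM40 and 265 CPM in Ad-Null in the gated cells, against 52.3 CPM in Ad-MEM40 and 54.9 CPM in Ad-Null in the macrophages. Apolipoprotein E (Apoe), a lipid carrier of macrophages, had 326 CPM in Ad-MEM40 and 155 CPM in Ad-Null in the gated cells, against 2419 CPM in Ad-MEM40 and 1834 CPM in Ad-Null in the macrophages. The folate receptor gene Folr2 and the scavenger receptor gene Stab1, known from resident macrophages, were also lower, with Folr2 at 16.1 CPM in Ad-MEM40 and 7.999 CPM in Ad-Null in the gated cells, against 117 CPM in Ad-MEM40 and 67.1 CPM in Ad-Null in the macrophages.

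Against the Retnla-high cells, 72 in Ad-MEM40 and 74 in Ad-Null, 417 of 5600 genes (7.45%) were higher in the gated cells and 473 (8.45%) lower in both. Osteopontin (Spp1), a secreted matrix protein, had 362 CPM in Ad-MEM40 and 361 CPM in Ad-Null in the gated cells, against 8.998 CPM in Ad-MEM40 and 15.5 CPM in Ad-Null in the Retnla-high cells. Plac8, a gene of monocytes, had 1080.2 CPM in Ad-MEM40 and 879 CPM in Ad-Null in the gated cells, against 101 CPM in Ad-MEM40 and 68.03 CPM in Ad-Null in the Retnla-high cells. The retinoic acid enzyme gene Aldh1a2 and the eosinophil-type ribonuclease gene Ear2, which has near-identical copies that may share reads, were lower, with Ear2 at 61.8 CPM in Ad-MEM40 and 109 CPM in Ad-Null in the gated cells, against 509 CPM in Ad-MEM40 and 778 CPM in Ad-Null in the Retnla-high cells. Lyz1, a lysozyme gene with a near-identical copy in Lyz2 so that reads may be split, had 163 CPM in Ad-MEM40 and 110.0 CPM in Ad-Null in the gated cells, against 1632 CPM in Ad-MEM40 and 1852 CPM in Ad-Null in the Retnla-high cells. Ly6c2-high cells reached 50 cells on both sides only in Ad-MEM40, where 860 of 5773 genes (14.9%) were higher in the gated cells and 464 (8.04%) lower. The plasmacytoid dendritic cell genes were among the lower ones, with Ly6d at 0.776 CPM and Ccr9 at 2.02 CPM in the gated cells, against 90.5 CPM and 50.2 CPM in the 137 Ly6c2-high cells. Barcodes that passed every gate but had fewer than 2 UMIs of the gate genes numbered 3426 in Ad-MEM40 and 1815 in Ad-Null. Against them, 386 of 5810 genes (6.64%) were higher in the gated cells and 359 (6.18%) lower in both libraries. Among the lowest were melanocyte genes such as Pmel, at 199.9 CPM in Ad-MEM40 and 95.7 CPM in Ad-Null in the gated cells, against 1071 CPM in Ad-MEM40 and 827 CPM in Ad-Null in those barcodes, so that set held melanoma RNA.

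Around the threshold, the step from 1 to 2 UMIs of the gate genes differed between genes and between libraries. Gated cells with exactly 2 UMIs of the gate genes numbered 170 in Ad-MEM40 and 89 in Ad-Null, and barcodes just outside with exactly 1 UMI numbered 449 and 233. Lyz2 averaged 3827 CPM just inside and 2048 CPM just outside in Ad-MEM40, and 1071 and 717 CPM in Ad-Null. At 4 or more UMIs it was 5926 CPM in Ad-MEM40 and 4231 CPM in Ad-Null, and at 0 UMIs 569.8 and 226 CPM. Clec4e averaged 226 CPM just inside and 117 CPM just outside in Ad-MEM40, and 34.9 and 20.96 CPM in Ad-Null. Fn1 in Ad-Null was at 64.1 CPM just inside and 83.9 CPM just outside, Areg at 18.8 and 27.5 CPM, and Mgl2 at 357 and 376 CPM. In Ad-MEM40 each was higher just inside. Fn1 was there at 169 and 127 CPM, Areg at 39.9 and 18.4 CPM and Mgl2 at 276 and 211 CPM. At 4 or more UMIs in Ad-Null, Fn1 was at 866 CPM, Areg at 177 CPM and Mgl2 at 543 CPM. At 0 UMIs they were at 40.4, 8.86 and 127 CPM. Mgl2 in Ad-MEM40 was at 260 CPM at 4 or more UMIs. H2-Aa in Ad-MEM40 was at 5739 CPM just inside, 5253 CPM just outside and 3844 CPM at 4 or more UMIs.

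Between treatments, the gated cells of Ad-MEM40 held more RNA than those of Ad-Null of Inhba, Ccl5, Nos2, Acod1, Slc7a11, Clec4e and Clec4d. They held less of Ccl17, Mgl2, Areg, H2-DMb2 and replication-dependent histone genes. The gate genes themselves were at similar levels, but the rule required their UMIs in each cell, so this is no result about the treatments. Fn1, Arg1 and Spp1 were also at similar levels. Some of these directions also held in the other barcodes, so they were not particular to the gated cells. Clec4e had 62.7 CPM in Ad-MEM40 and 26.3 CPM in Ad-Null there, Slc7a11 41.1 and 18.8 CPM, and Mgl2 127 and 213 CPM. Areg was nearer to level there, at 20.8 and 23.6 CPM, and Inhba and Ccl17 are given below. Of 5676 genes in the gated cells, 241 (4.25%) were higher in Ad-MEM40 and 93 (1.64%) lower, with a median log2 ratio of 0.03 over all genes. Without the barcodes with collagen or melanocyte UMIs, 182 of 5476 were higher and 96 lower. With each gated cell thinned to 3000 UMIs, 420 of 5746 were higher and 303 lower. Thinning evened the UMIs per cell, not the summed UMIs of the libraries, which held different numbers of gated cells. It also left fewer UMIs to count, and the part of depth in the lean towards higher genes was not tested. These are differences between 2 libraries of unequal depth, so whether they come from the treatment or from the library cannot be told apart.

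Inhba, the activin A subunit, a TGF-beta family ligand, had 159 CPM in Ad-MEM40 (interval 149.7 to 169), 12.2 CPM in Ad-mIFNB, 251 CPM in Ad-COMBO and 10.3 CPM in Ad-Null (7.92 to 13.2). Only 1 of 12 gated cells of Ad-COMBO and 1 of 32 of Ad-mIFNB carried it, against 108 of 544 in Ad-MEM40 and 17 of 311 in Ad-Null. The log2 ratio of Ad-MEM40 over Ad-Null was 3.42, and 3.37 in the Vcan/F10 cells. Thinned to 3000 UMIs, 14.3% of gated cells of Ad-MEM40 had a UMI (interval 11.4% to 17.5%), against 1.63% of Ad-Null (0.533% to 3.77%). The cDC1-gated barcodes stood at 0.845% in Ad-MEM40 and 0.211% in Ad-Null. The other barcodes also had more in Ad-MEM40, at 14.5 CPM, than in Ad-Null, at 2.98 CPM, so the direction was not particular to the gated cells.

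Among secreted factors, Ccl5, a T cell attractant, had 333 CPM in Ad-MEM40, 194 CPM in Ad-mIFNB, 490.5 CPM in Ad-COMBO and 64.2 CPM in Ad-Null (log2 2.29). The protease inhibitor gene Slpi had 93.5 CPM in Ad-MEM40, 1.36 CPM in Ad-mIFNB, 0 CPM in Ad-COMBO and 5.33 CPM in Ad-Null (log2 3.25), with a log2 ratio of 3.31 in the Vcan/F10 cells and 0.44 in the Trem1-only cells. The acute-phase gene Saa3 had 157 CPM in Ad-MEM40, 39.4 CPM in Ad-mIFNB, 0 CPM in Ad-COMBO and 187 CPM in Ad-Null, and 78.2% of its UMIs in Ad-Null stood in 1 cell. Without the collagen and melanocyte barcodes its log2 ratio was 3.33, against -0.25 with them. The neutrophil attractant gene Cxcl3 had 78.4 CPM in Ad-MEM40, 13.6 CPM in Ad-mIFNB, 0 CPM in Ad-COMBO and 22.7 CPM in Ad-Null and the cytokine gene Il1a had 57.5 CPM in Ad-MEM40, 2.72 CPM in Ad-mIFNB, 10.7 CPM in Ad-COMBO and 17.997 CPM in Ad-Null. Both were higher in Ad-MEM40 over all gated cells (log2 1.59 and 1.44). In the Trem1-only cells the log2 ratios were -0.20 for Cxcl3, within 1.5-fold, and -0.81 for Il1a. The IL-1 receptor antagonist gene Il1rn had 210.3 CPM in Ad-MEM40, 86.98 CPM in Ad-mIFNB, 219 CPM in Ad-COMBO and 94.5 CPM in Ad-Null (log2 1.11). Of 18 measured chemokines 7 were higher and 1 lower, with a median of 0.36, and of 16 cytokines and receptors of inflammation 3 were higher and 0 lower, with a median of 0.10.

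Metabolic genes among the named ones included several that were higher in Ad-MEM40. The inducible nitric oxide synthase gene Nos2 had 85.6 CPM in Ad-MEM40, 8.15 CPM in Ad-mIFNB, 15.99 CPM in Ad-COMBO and 19.2 CPM in Ad-Null (log2 1.91). Acod1, the itaconate-producing enzyme, had 93.3 CPM in Ad-MEM40, 5.44 CPM in Ad-mIFNB, 139 CPM in Ad-COMBO and 21.7 CPM in Ad-Null (log2 1.88). Slc7a11, the cystine transporter of glutathione synthesis, had 215 CPM in Ad-MEM40, 40.8 CPM in Ad-mIFNB, 58.6 CPM in Ad-COMBO and 50.2 CPM in Ad-Null (log2 1.995). In each of them Ad-MEM40 exceeded Ad-Null, and the few cells of Ad-mIFNB and Ad-COMBO varied. Ferritin heavy chain (Fth1), which stores iron, had 17007 CPM in Ad-MEM40, 8405 CPM in Ad-mIFNB, 4388 CPM in Ad-COMBO and 6869.8 CPM in Ad-Null (log2 1.31). Hmox1 had 597 CPM in Ad-MEM40, 374 CPM in Ad-mIFNB, 331 CPM in Ad-COMBO and 272 CPM in Ad-Null (log2 1.12), and the mitochondrial superoxide dismutase gene Sod2 had 312 CPM in Ad-MEM40, 97.9 CPM in Ad-mIFNB, 224 CPM in Ad-COMBO and 141 CPM in Ad-Null (log2 1.12). Arginase 1, which competes with Nos2 for arginine, had 415 CPM in Ad-MEM40, 371 CPM in Ad-mIFNB, 0 CPM in Ad-COMBO and 385 CPM in Ad-Null (log2 0.10).

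Of 18 TREM and ITAM-coupled receptor genes, which signal through an activating motif in an adaptor, 4 were higher in Ad-MEM40 and 0 lower, with a median of 0.18. These were Clec4d, Clec4e, Clec5a and the Fc receptor gene Fcgr4. Clec4d, which encodes the Mincle partner MCL (ENSMUSG00000030144, chr6:123262111-123275265), had 174 CPM in Ad-MEM40, 117 CPM in Ad-mIFNB, 85.3 CPM in Ad-COMBO and 48.7 CPM in Ad-Null (log2 1.74). Clec4e (ENSMUSG00000030142, chr6:123281789-123289870) had 337 CPM in Ad-MEM40, 96.5 CPM in Ad-mIFNB, 117 CPM in Ad-COMBO and 136 CPM in Ad-Null (log2 1.28), and the ratio stayed above 1.5-fold in the Vcan/F10 cells at 1.22 and the Trem1-only cells at 1.18. Clec4n, of the same cluster, did not reach 1.5-fold (log2 0.29), nor did Trem1 (log2 0.23), which helped to choose the cells. Clec5a, another DAP12-coupled lectin, had 95.04 CPM in Ad-MEM40, 27.2 CPM in Ad-mIFNB, 5.33 CPM in Ad-COMBO and 39.2 CPM in Ad-Null (log2 1.18).

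Among 17 genes known as targets of interferon gamma, 4 were higher and 0 lower (median 0.37). They were AW112010 (log2 2.15), the guanylate-binding protein genes Gbp2 (0.99) and Gbp5 (0.89) and the checkpoint ligand gene Cd274 (0.82). Cd274 had 208 CPM in Ad-MEM40, 226 CPM in Ad-mIFNB, 443 CPM in Ad-COMBO and 115 CPM in Ad-Null. The 23 measured type I interferon response genes had a median of 0.01. Of 22 CD40 and NF-kB target genes, 2 were higher, Sod2 and Tnip1, a binding partner of the NF-kB regulator A20 (log2 0.79). Bcl2a1d, a survival gene with near-identical copies that may share reads, was the 1 lower (log2 -0.66, and -0.57 without the collagen and melanocyte barcodes), and the median was 0.23. Of 20 class I presentation genes 1 was higher, H2-Q7 (log2 0.76), with a median of 0.20. The Ly6 family gene Ly6i had 119 CPM in Ad-MEM40, 44.9 CPM in Ad-mIFNB, 15.99 CPM in Ad-COMBO and 21.8 CPM in Ad-Null (log2 2.21).

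The 9 lipid handling genes held 4 that were higher and 0 lower (median 0.48), and the 16 genes for phagocytosis and lysosomes held 5 and 0 (median 0.39). Apoe had 326 CPM in Ad-MEM40, 92.4 CPM in Ad-mIFNB, 15.99 CPM in Ad-COMBO and 155 CPM in Ad-Null (log2 1.05). Perilipin 2 (Plin2), a lipid droplet coat, had 445 CPM in Ad-MEM40, 390.1 CPM in Ad-mIFNB, 245 CPM in Ad-COMBO and 253 CPM in Ad-Null (log2 0.80). Lyz2 had 5145 CPM in Ad-MEM40, 4912 CPM in Ad-mIFNB, 928 CPM in Ad-COMBO and 3165 CPM in Ad-Null (log2 0.70), and the NADPH oxidase subunit gene Cybb had 716 CPM in Ad-MEM40, 504 CPM in Ad-mIFNB, 784 CPM in Ad-COMBO and 460.1 CPM in Ad-Null (log2 0.63). In Ad-mIFNB the Lyz2 UMIs lay mostly in the Vcan/F10 cells, of which the highest reached 425 UMIs per 10000 against a median of 34.5.

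Several of the largest ratios rested on barcodes with RNA of other cells. All 8 measured melanocyte genes and all 5 measured fibroblast genes were higher in the gated cells of Ad-MEM40 (median log2 0.92 and 1.28). Ptgds, a prostaglandin D synthase, had a log2 ratio of 2.38, and 0.51 without the collagen and melanocyte barcodes. Fibrillin 1 (Fbn1), a matrix fibre protein of fibroblasts, went with them too, at 2.20 with and 0.26 without them. The melanocyte gene Tyrp1 was at 2.05 with and 0.61 without them. On the lower side, Cpxm1 (-2.05 with and 0.050 without) and Prg4 (-1.995 with and -0.18 without) each had most of their Ad-Null UMIs in 1 cell, 91.4% and 88.9%. Inhba, Ccl5, AW112010, Slc7a11 and Nos2 did not rest on them, with ratios of 3.51, 2.23, 2.21, 2.06 and 1.98 without those barcodes.

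**Figure D4:**
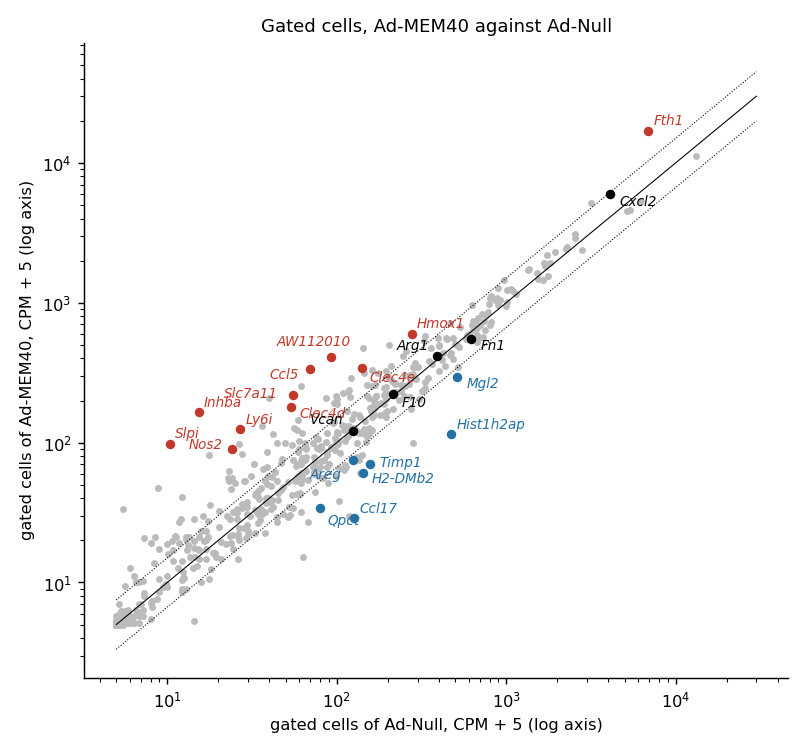
CPM of summed UMIs with 5 added in the gated cells of Ad-MEM40 (y axis) against those of Ad-Null (x axis), both on log axes, for list and named genes, with equality as a solid line and 1.5-fold as dotted lines. Inhba at 159 against 10.3 CPM lies farthest above the line among the labelled genes and Ccl17 at 23.9 against 121 CPM farthest below, while Vcan, F10, Fn1 and Arg1 lie near it. Vcan and F10 helped to choose the cells.

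Genes lower in Ad-MEM40 included Ccl17, Mgl2, Egr2 and Timp1. Ccl17, a ligand of CCR4 made by dendritic cells, had 23.9 CPM in Ad-MEM40, 23.1 CPM in Ad-mIFNB, 5.33 CPM in Ad-COMBO and 121 CPM in Ad-Null (log2 -2.13). Thinned shares of gated cells with a Ccl17 UMI were 2.28% in Ad-MEM40 (interval 1.18% to 3.95%) and 6.21% in Ad-Null (3.78% to 9.53%). In the cDC1-gated barcodes they were 1.95% in Ad-MEM40, inside the interval of the gated cells, and 3.44% in Ad-Null. The other barcodes were lower in Ad-MEM40 too, at 30.5 CPM, against 65.98 CPM in Ad-Null. Mgl2 had 289 CPM in Ad-MEM40, 425 CPM in Ad-mIFNB, 272 CPM in Ad-COMBO and 510.4 CPM in Ad-Null (log2 -0.81). Areg had 69.6 CPM in Ad-MEM40, 14.95 CPM in Ad-mIFNB, 0 CPM in Ad-COMBO and 120.0 CPM in Ad-Null (log2 -0.75), but was higher in Ad-MEM40 within the Trem1-only cells (log2 0.67). Egr2, a transcription factor of alternative activation, had 58.9 CPM in Ad-MEM40, 81.5 CPM in Ad-mIFNB, 74.6 CPM in Ad-COMBO and 105 CPM in Ad-Null (log2 -0.79). The list of alternative activation and arginine genes had 9 measured, with a median of -0.14. Of these 2 were higher, both tied to arginine, Nos2 and the arginine transporter gene Slc7a2, and 2 were lower, Egr2 and Ear2. The metalloprotease inhibitor gene Timp1 had 65.7 CPM in Ad-MEM40, 33.98 CPM in Ad-mIFNB, 0 CPM in Ad-COMBO and 152 CPM in Ad-Null (log2 -1.15, and -0.91 without the collagen and melanocyte barcodes).

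Among 13 class II genes, 0 were higher and 2 lower (median -0.24). H2-DMb2, a chain of the class II peptide exchange factor that has a close copy in H2-DMb1, had 56.1 CPM in Ad-MEM40, 169.9 CPM in Ad-mIFNB, 304 CPM in Ad-COMBO and 138 CPM in Ad-Null (log2 -1.23), and H2-Oa had a log2 ratio of -0.64, which was -0.56 and within 1.5-fold without the collagen and melanocyte barcodes. Other cells also held less H2-DMb2 in Ad-MEM40 than in Ad-Null. The Cd209a cells had 133 and 223 CPM of it and the cDC1-gated barcodes 61.8 and 95.2 CPM. The conventional chain H2-Aa had 4519 CPM in Ad-MEM40, 5499 CPM in Ad-mIFNB, 6515 CPM in Ad-COMBO and 5175 CPM in Ad-Null (log2 -0.20). The histone gene Hist1h2ap had 109.6 CPM in Ad-MEM40, 97.9 CPM in Ad-mIFNB, 0 CPM in Ad-COMBO and 466 CPM in Ad-Null (log2 -2.04). Hist1h2ae (-1.50), Hist1h4d (-1.43), Hist2h2ac (-1.31) and Hist1h3c (-1.19) were lower in the same direction, and histone genes are near-identical copies that may share reads. Of 16 cell cycle genes 0 were higher and 1 lower, with a median of -0.26. The glutaminyl cyclase gene Qpct had 28.9 CPM in Ad-MEM40, 99.2 CPM in Ad-mIFNB, 31.99 CPM in Ad-COMBO and 75.2 CPM in Ad-Null (log2 -1.24). The isoprenoid synthesis gene Idi1 (log2 -0.80) was lower too.

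Matrix genes had 7 of 20 higher and 1 lower, with a median of 0.14. Sparc, 1 of the 7, had a log2 ratio of 1.71 with and 0.27 without the collagen and melanocyte barcodes. Coagulation and fibrinolysis genes had 2 of 12 higher, Procr and Gas6, 1 lower, F7, and a median of 0.08. Procr encodes the protein C receptor, and F7 encodes the factor that activates factor X. F7 had 39.1 CPM in Ad-MEM40, 36.7 CPM in Ad-mIFNB, 63.98 CPM in Ad-COMBO and 69.5 CPM in Ad-Null (log2 -0.76). Gas6, a vitamin K-dependent ligand, had a log2 ratio of 1.22 with and 0.58 without the collagen and melanocyte barcodes. EGF receptor ligands and growth factors had 0 of 8 higher and 1 lower (median -0.07), and lectins of monocyte-derived and dendritic cells 0 of 8 higher and 1 lower (median -0.24). Chemoattractant receptors had 1 of 10 higher, the formyl peptide receptor gene Fpr2, with 42.4 CPM in Ad-MEM40, 2.72 CPM in Ad-mIFNB, 10.7 CPM in Ad-COMBO and 3.83 CPM in Ad-Null. Costimulatory and inhibitory molecules had 1 of 12 higher, Cd274, and a median of -0.08, hypoxia and glycolysis genes 2 of 20 higher, Ero1l and Egln3, and a median of 0.15, and immediate early and heat shock genes 0 of 16 in either direction. Among 19 myeloid transcription factors Irf4, a factor of cDC2, was the 1 lower (log2 -0.74) and 0 were higher, with a median of -0.06. Genes that chose the cells are part of the coagulation (F10), matrix (Vcan), TREM (Trem1), lectin (Cd209a), receptor (Ccr7) and alternative activation and arginine (Retnla) lists.

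**Figure D5:**
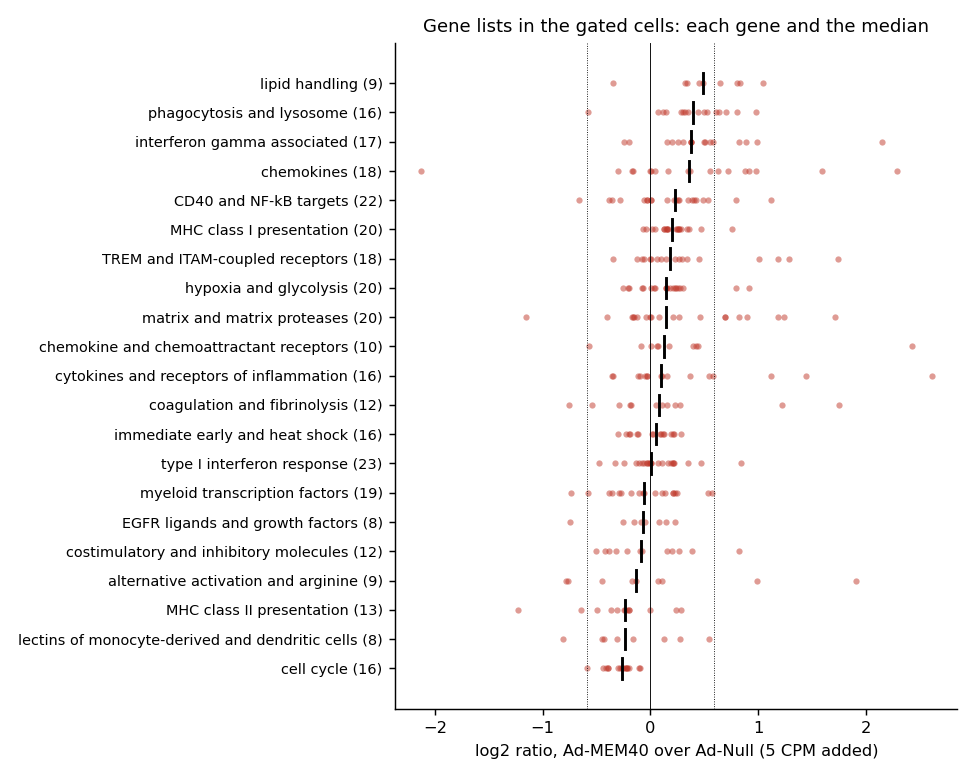
Log2 ratio of Ad-MEM40 over Ad-Null in the gated cells (x axis, 5 CPM added) for each measured gene (points) of the 21 lists by function (number of genes in brackets), the cell type marker lists not drawn, with the list's median as a bar and 1.5-fold as dotted lines. These 21 medians run from -0.26 for cell cycle genes to 0.48 for lipid handling genes, within 1.5-fold on either side.

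The subsets were also compared between these libraries. In the Vcan/F10 cells, 253 of 5721 genes were higher in Ad-MEM40 and 106 lower, and in the Trem1-only cells, 336 of 5607 were higher and 198 lower. Interferon gamma genes were higher for 4 of 17 in the Vcan/F10 cells (median 0.36) and 8 of 17 in the Trem1-only cells (median 0.54). Lipid handling genes were higher for 4 of 9 (median 0.39) and 4 of 8 (median 0.61). The difference between subsets was not tested. Inhba differed in both subsets, with a log2 ratio of 3.37 in the Vcan/F10 cells and 3.29 in the Trem1-only cells.

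In the interferon beta libraries the few gated cells held high levels of interferon response genes. Ifit1, an antiviral RNA-binding protein gene, had 631 CPM in Ad-mIFNB (interval 575 to 691), 768 CPM in Ad-COMBO (647 to 904) and 63.2 CPM in Ad-Null (56.96 to 69.8). Rsad2, which encodes the antiviral enzyme viperin, had 1233 CPM in Ad-mIFNB (1154 to 1316), 2009.9 CPM in Ad-COMBO (1812 to 2223) and 121 CPM in Ad-Null (112 to 129.9). Ad-MEM40 held 49.4 CPM of Ifit1 and 122 CPM of Rsad2, near the Ad-Null levels. The chemokine gene Cxcl10 had 319.6 CPM in Ad-MEM40, 1465 CPM in Ad-mIFNB, 1269 CPM in Ad-COMBO and 395 CPM in Ad-Null, and the ubiquitin-like modifier gene Isg15 had 555 CPM in Ad-MEM40, 1384 CPM in Ad-mIFNB, 2249.8 CPM in Ad-COMBO and 478 CPM in Ad-Null. The other barcodes were high in the same libraries, with Rsad2 at 137 CPM in Ad-MEM40, 845 CPM in Ad-mIFNB, 1029 CPM in Ad-COMBO and 103 CPM in Ad-Null. No fold is given, since these libraries held 32 and 12 gated cells.

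The summed type I interferon response list was high in both interferon beta libraries in both subsets. It was 2826 CPM in Ad-MEM40, 6739.8 CPM in Ad-mIFNB, 15089 CPM in Ad-COMBO and 2586 CPM in Ad-Null in the Vcan/F10 cells. In the Trem1-only cells it was 3195 CPM in Ad-MEM40, 13165 CPM in Ad-mIFNB, 13028 CPM in Ad-COMBO and 2638 CPM in Ad-Null. In the Vcan/F10 cells Ad-COMBO stood highest, and in the Trem1-only cells Ad-mIFNB and Ad-COMBO stood at near-equal levels. Ly6c2, itself known to respond to interferon, was capped by the rule. The Ly6c2-high population held 137 cells in Ad-MEM40, 237 in Ad-mIFNB, 41 in Ad-COMBO and 46 in Ad-Null. It needed no UMI of the gate genes, so it is not the set of cells that the cap removed from the gated cells. Without the cap the gated share was 3.60% in Ad-MEM40, 1.99% in Ad-mIFNB, 2.38% in Ad-COMBO and 3.65% in Ad-Null, within the counting intervals of the shares with it. Spp1 had 362 CPM in Ad-MEM40, 2561 CPM in Ad-mIFNB, 31.99 CPM in Ad-COMBO and 361 CPM in Ad-Null, and the 2561 CPM of Ad-mIFNB came mainly from its 14 Vcan/F10 cells, at 4340.2 CPM. Fn1 had 549 CPM in Ad-MEM40, 479.8 CPM in Ad-mIFNB, 0 CPM in Ad-COMBO and 617 CPM in Ad-Null. In Ad-COMBO, Fn1, Arg1, Thbs1 and Areg each had 0 UMIs in the 12 gated cells, where 3 UMIs would be 16.0 CPM.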

How the data were processed

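Single-cell RNA was captured with a droplet 3′ kit and the authors deposited UMI counts per gene and barcode as filtered matrices. The submitters' processing notes name Cell Ranger 3.0, Seurat 4.0 and mm10, whereas the software field per the file headers reads Cell Ranger 6.0.0. The files held 32285 genes, of which 32235 had a GENCODE M21 position. UMIs were summed over cells per library and population and divided by their total (Python 3.11.15, numpy 2.4.6, scipy 1.17.1, pandas 2.3.3). With 1 library per treatment no test was run, and groups under 50 cells got no fold. Scrublet (scanpy 1.11.5, 0.8% doublets per 1000 barcodes) marked 2161, 2, 2 and 612 barcodes in Ad-MEM40, Ad-mIFNB, Ad-COMBO and Ad-Null. Its automatic threshold called 0 in Ad-Null, where the expected share was used instead. Marked barcodes held 26, 0, 0 and 10 gated cells and were kept in the results given. Named genes were list members, the 20 leading genes of at least 50 CPM, and the 10 highest and 10 lowest ratios of each comparison, with and without the collagen or melanocyte barcodes. Ffar2, Ifitm1, Flt3, Fth1 and Hmox1 fell outside this rule and were chosen after their values were seen. Symbols held by several gene IDs were not named. Of 490 list genes, 483 were found. Members and lists were chosen with earlier results of these data known. The counting and calling steps were tested on simulated data. Alternatives covered doublets, filters, gates, thinning, the added constant and scaling. Leaving out collagen or melanocyte barcodes and splitting the gated cells were chosen after seeing the data. A few gene-level results are not reported here.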

Additional observations from a re-analysis of the deposited data

How the results depend on the processing

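No paired analysis was possible because each treatment had 1 library. The share of gated cells moved beyond its counting interval in these cases, and the cause was not tested. In Ad-MEM40 it was 3.84% without doublets, 3.87% with the stricter cell filter, 1.67% thinned, 3.88% without the Cd209a gate, 9.36% without the C1q gate and 1.71% at 4 or more UMIs. In Ad-mIFNB it was 0.436% thinned, 4.97% without the C1q gate and 0.718% at 4 or more UMIs. In Ad-COMBO these shares were 0.877%, 6.11% and 0.596%. In Ad-Null it was 1.33% thinned, 4.13% without the Retnla gate, 4.79% without the Cd209a gate, 9.41% without the C1q gate and 2.02% at 4 or more UMIs. Between Ad-MEM40 and Ad-Null, the count of higher genes, 241, was 420 thinned and 493 without the CPM filter. The count of lower genes, 93, was 303 thinned, 151 without the CPM filter and 198 in the Trem1-only cells. The count lower than the barcodes under 2 UMIs, 359, was 229 as a mean over cells and 219 thinned. Among log2 ratios that reached 1.5-fold, the sign changed in the Trem1-only cells for Fbn1 (-0.20), Areg (0.67), Cxcl3 (-0.20) and Il1a (-0.81). It also changed for Cpxm1 (0.050) without the collagen and melanocyte barcodes, and both of these settings were chosen after seeing the data. Some ratios within 1.5-fold changed sign too, as for Saa3, at -0.25 over all gated cells and 3.33 without those barcodes. Over 12 alternatives, the ratio of Inhba ran between 3.29 and 3.91, that of Clec4e between 1.11 and 1.49 and that of Ccl17 between -2.30 and -1.27. Alternatives for the interferon beta libraries over Ad-Null were not run, since both held under 50 gated cells.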
